A study of Mus musculus with 2 samples.

Results

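Neutrophils that carried transcripts of specific granule genes were picked out of 2 single-cell libraries of cells sorted from the inflamed central nervous system (CNS) of mice. A droplet barcode was kept when it held 500 or more genes, 1000 or more gene transcripts counted by unique molecular identifiers (UMIs) and under 10% mitochondrial UMIs. Of the kept barcodes, members were those with at least 1 UMI in 2 or more of Ltf, Ngp, Camp, Ly6g and Mmp8, here called the gate genes, and with 0 UMIs of Mpo, Elane, Cd3e, P2ry12 and Arg1, the exclusion genes. This gave 649 members among 25603 kept barcodes of 26354 deposited. The WT library held 217 of them and the Stat4fl/flCD11cCre library 432. Because the members were chosen by their measured UMIs, the levels of these 10 genes in them are given as a description.

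Both libraries came from C57BL/6 mice with experimental autoimmune encephalomyelitis (EAE), a model in which immunization against myelin causes autoimmune inflammation of the CNS. Mice of both genotypes received MOG peptide in complete Freund's adjuvant (CFA) and pertussis toxin (PTX), and CNS mononuclear cells were taken on day 15, pooled within each genotype and sorted as MHCII+ CD11c+. The WT group is called only that in the labels. In the Stat4fl/flCD11cCre group a floxed Stat4, which encodes a transcription factor of interleukin-12 and interleukin-23 signalling, is removed where the promoter of CD11c (Itgax), a gene of dendritic and other myeloid cells, drives Cre. Each genotype is therefore 1 library from a pool, there are no replicates, and no difference between genotypes can be told apart from a difference between pools, sorts or library preparations. Every interval below is an exact 95% interval that covers counting error only.

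Neutrophils build their granules in the bone marrow in a fixed sequence. Progenitors make azurophil granule proteins such as myeloperoxidase (Mpo) and neutrophil elastase (Elane), the next stage makes specific granule proteins such as lactoferrin (Ltf), neutrophilic granule protein (Ngp) and cathelicidin (Camp), and later cells make gelatinase granule proteins such as Mmp9 before they leave as cells with Cxcr2, the receptor for neutrophil chemokines, and Csf3r, the receptor for granulocyte colony-stimulating factor. Mature neutrophils in inflamed tissue keep little granule gene transcription and are known for chemokine, interleukin-1 and interferon-response genes.

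The 5 gate genes lie at 2 places on mouse chromosome 9 and at 1 on chromosome 15 in GRCm38.p6, the assembly that mm10 names. Camp (chr9:109847377-109849456), Ngp (chr9:110419808-110423012) and Ltf (chr9:111019292-111042766) neighbour each other within one part of chromosome 9, the collagenase gene Mmp8 (chr9:7558429-7568486) lies far from them, and Ly6g, a surface protein that marks mouse neutrophils, lies at chr15:75155261-75159128. Their upstream sequences are shown because these genes define the members. Each is RefSeq GRCm38.p6 sequence read 5′ to 3′ on the gene's strand, ending before the first annotated transcript start, in lower case. Capitals mark matches, on either strand, to TTNNGNAA (a C/EBP-like pattern), GAGGAA (a core that PU.1 binds) or TATAAA.
Ltf, chr9:111019042-111019270, plus strand: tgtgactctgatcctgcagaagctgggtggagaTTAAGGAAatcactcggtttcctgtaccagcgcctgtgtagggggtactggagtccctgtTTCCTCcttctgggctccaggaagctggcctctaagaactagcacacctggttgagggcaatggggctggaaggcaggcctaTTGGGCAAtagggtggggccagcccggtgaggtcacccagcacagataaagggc
Ngp, chr9:110419558-110419746, plus strand: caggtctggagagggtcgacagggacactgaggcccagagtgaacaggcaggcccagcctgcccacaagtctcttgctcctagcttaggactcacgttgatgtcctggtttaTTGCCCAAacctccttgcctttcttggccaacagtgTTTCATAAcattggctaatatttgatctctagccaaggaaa
Camp, chr9:109849618-109849706, minus strand: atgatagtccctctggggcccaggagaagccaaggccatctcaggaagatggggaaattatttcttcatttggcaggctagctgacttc
Ly6g, chr15:75155011-75155239, plus strand: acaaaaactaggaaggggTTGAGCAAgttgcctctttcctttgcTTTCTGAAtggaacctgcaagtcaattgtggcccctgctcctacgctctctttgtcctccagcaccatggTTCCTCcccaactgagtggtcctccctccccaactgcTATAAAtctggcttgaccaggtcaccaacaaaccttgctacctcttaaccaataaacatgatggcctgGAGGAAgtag
Mmp8, chr9:7558179-7558428, plus strand: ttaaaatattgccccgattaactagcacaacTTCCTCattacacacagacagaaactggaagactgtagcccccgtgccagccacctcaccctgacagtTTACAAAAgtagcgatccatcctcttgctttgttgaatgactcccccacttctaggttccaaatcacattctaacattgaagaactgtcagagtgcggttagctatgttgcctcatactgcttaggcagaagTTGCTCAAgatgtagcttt
Among 32851 RefSeq upstream windows of 250 bases, 36.8% hold TTNNGNAA, 23.3% GAGGAA and 12.4% TATAAA. The full window held 2 matches to TTNNGNAA for Ltf, 3 for Ngp, 0 for Camp, 2 for Ly6g and 2 for Mmp8, and Ly6g alone of the 5 held TATAAA. These are matches of letters and say nothing of binding.

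The members carried the neutrophil markers as a group. All 13 neutrophil markers on the list for this cell type were found in both libraries. Together they took a median of 40.5% of a WT member's UMIs and 41.5% of a Stat4fl/flCD11cCre member's. The gate genes Ltf, Ngp, Camp, Ly6g and Mmp8 are among these markers, so the rule partly set this count and these medians. The alarmin genes S100a8 and S100a9, whose products form calprotectin, together reached 1% of a cell's UMIs in 202 of 217 WT members (93.1%) and 397 of 432 Stat4fl/flCD11cCre members (91.9%). S100a8 had a median of 14.3% and 13.7% of a member's UMIs and S100a9 of 18.1% and 19.0%, and the rule used neither. Retnlg, a neutrophil-secreted resistin-like protein that the rule did not use, had a UMI in 89.9% of WT members and 89.8% of Stat4fl/flCD11cCre members, against 2.24% and 4.46% of T cells (cells with Cd3e and Trbc2 and with no gate gene or C1qa). Median depth was 6076 UMIs in WT members and 7003 in Stat4fl/flCD11cCre members, beside 5220.5 and 6202.5 in those T cells.

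A minority of members went against the label. The 15 WT and 35 Stat4fl/flCD11cCre members below 1% S100a8 and S100a9 held neutrophil markers at only 1340 and 795 CPM (UMIs summed over a group of cells and scaled to a common total), against 414358 and 419485 CPM in the rest. These sums include S100a8 and S100a9, so most of this gap was set by the cut itself. Neither the cut nor the rule used Retnlg and Lcn2. Retnlg was at 11.2 and 2.60 CPM in these cells against 17540 and 27025 CPM, and Lcn2 at 156 and 46.8 against 14382 and 15254 CPM. The 11 monocyte markers summed to 11291 and 12606 CPM in these cells and to 6606 and 5351 CPM in the rest. Plac8 differed most in CPM, at 4691 and 4606 against 613 and 596 CPM, and Ly6c2, Ccr2, F13a1 and Vcan were also higher. Chil3 was lower, at 2759 and 2985 against 4763 and 3439 CPM, as were Treml4 in both libraries and Ace in Stat4fl/flCD11cCre. They are called low-S100 members below, a class set after the values were seen, and results that rest on them are given with and without them. Of other cell types, macrophage markers summed to 1865 CPM (WT) and 1888 CPM (Stat4fl/flCD11cCre) in members, with Arg1 at 0 by rule and 10 and 11 of 12 markers found. They reached 10275 and 4551 CPM in low-S100 members, against 1366 and 1582 CPM in the rest. Choroid plexus and endothelium markers summed to 1163 and 519 CPM, mostly Ttr in 1 member of each library. The T cell marker sum was 51.9 CPM (WT) and 22.5 CPM (Stat4fl/flCD11cCre), with Cd3e at 0 by rule and 9 of 11 markers found in each library. The microglia marker sum was 286 and 151 CPM, with P2ry12 at 0 by rule and 9 of 10 markers found. Of the 9 basophil and mast cell markers, 2 and 0 were found. Doublets were not removed, because the rule does not remove them, and 43 barcodes occurred in both libraries, 1 of them a WT member and 4 Stat4fl/flCD11cCre members.

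The gate's edge was soft. Members with exactly 2 gate genes had S100a8 and S100a9 at 1% or more in 45 of 60 (WT) and 94 of 126 (Stat4fl/flCD11cCre), while cells just outside, with 1 gate gene and no exclusion gene, did so in 17.2% of 552 and 26.9% of 662. The gate genes were also found in other cell types. When the gate genes were not used to choose them, 0.385% of 1817 WT T cells and 1.24% of 889 Stat4fl/flCD11cCre T cells had 2 or more gate genes, at median depths of 5358 and 6297 UMIs, and S100a8 had a UMI in 18.6% and 24.4% of them. Among microglia (P2ry12 and Tmem119) the shares were higher and lay the other way round: 4.59% of 4638 and 3.76% of 6150 had 2 or more gate genes, at median depths of 7344 and 6031 UMIs, and 38.8% and 32.1% had S100a8. Mmp8 was the gate gene found most often outside members, in 14.0% and 14.1% of the other kept barcodes. It had a UMI in 15.0% and 9.33% of these microglia, against 4.01% and 5.02% for Ngp. How much of this was free RNA, doublets or the cells' own transcripts was not tested.

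Members were more frequent in the Stat4fl/flCD11cCre library. They made up 1.63% of 13298 kept WT barcodes (interval 1.42% to 1.86%) and 3.51% of 12305 kept Stat4fl/flCD11cCre barcodes (3.19% to 3.85%), which was 2.15 times as many (1.82 to 2.54). The exclusion genes bore on this value. They removed 373 WT and 417 Stat4fl/flCD11cCre barcodes with 2 or more gate genes, of which 292 and 324 held P2ry12, a microglia gene, and 197 and 153 Arg1, a macrophage gene. Of the removed barcodes, 220 and 276 had S100a8 and S100a9 at 1% or more. Without the exclusion genes the shares were 4.44% and 6.90%, and the ratio was 1.56 (1.40 to 1.73). The progenitor gate, which needs UMIs in 2 or more of Mpo, Elane, Ctsg and Prtn3, differed by a like ratio of 1.98 (1.53 to 2.57), from 0.714% to 1.41%. For Cxcr2 neutrophils without gate genes the ratio was 1.24 (1.03 to 1.496), from 1.59% to 1.97%. These are shares of a sort for MHCII and CD11c, so they say what passed the gate, not how many neutrophils the tissue held.

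The sort's own genes were scarce in members. H2-Aa, an MHC class II chain, had a UMI in 51 of 217 WT members (23.5%) and 73 of 432 Stat4fl/flCD11cCre members (16.9%), and after each cell was thinned to 2500 UMIs in 17.9% of 201 and 11.7% of 418. Itgax had a UMI in 7 WT members and 21 Stat4fl/flCD11cCre members. The targeted gene itself, Stat4, stood at 59.4 CPM in WT members and 52.0 CPM in Stat4fl/flCD11cCre members. The log2 ratio was -0.19 and its interval, -0.56 to 0.18, includes 0. A Stat4 UMI was found in 26.7% and 26.9% of members. The labels do not say which part of the gene the floxed allele loses, so 3′ counts do not check the deletion.

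Calgranulin and granule genes dominated the members' RNA. S100a9 stood at 170192 CPM in WT members and 167712 CPM in Stat4fl/flCD11cCre members, and S100a8 at 141610 and 123717 CPM, far above any other gene named here. Ngp stood at 21203 and 19569 CPM, and Camp at 18980 and 17703 CPM. Lcn2, which encodes the iron-siderophore binder lipocalin-2, was at 13585 and 13685 CPM, and Ltf at 4385 and 4225 CPM. Levels varied widely among members. Ngp ranged from 0 to 1089 UMIs per WT member around a median of 15, and from 0 to 1605 around a median of 11 in Stat4fl/flCD11cCre members. Ltf and Camp had no UMI in many members. Ltf had one in 114 of 217 and 204 of 432, and Camp in 124 and 245. Ngp had one in 175 and 320, Mmp8 in 173 and 379, and Ly6g in 183 and 375.

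Levels of other genes differed with the number of gate genes found in a cell, though many did not rise or fall steadily with it. All 5 were found in 64 WT and 138 Stat4fl/flCD11cCre members, 4 in 50 and 77, 3 in 43 and 91, and 2 in 60 and 126. Among members with 4, Mmp8 was the missing gene in 32 of 50 and 38 of 77, and Ltf in 11 and 32. Among those with 2, the pair was Ly6g and Mmp8 in 33 of 60 and 74 of 126. The rule leaves no other pair for a member without Ltf, Ngp and Camp. Depth differed with the number of gate genes as well, at median UMIs of 3248.5 (WT) and 4354.5 (Stat4fl/flCD11cCre) with 2 and of 10245.5 and 9449 with 4. The part of depth, or of which gate gene was missing, in the levels below was not tested.

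**Figure D1:**
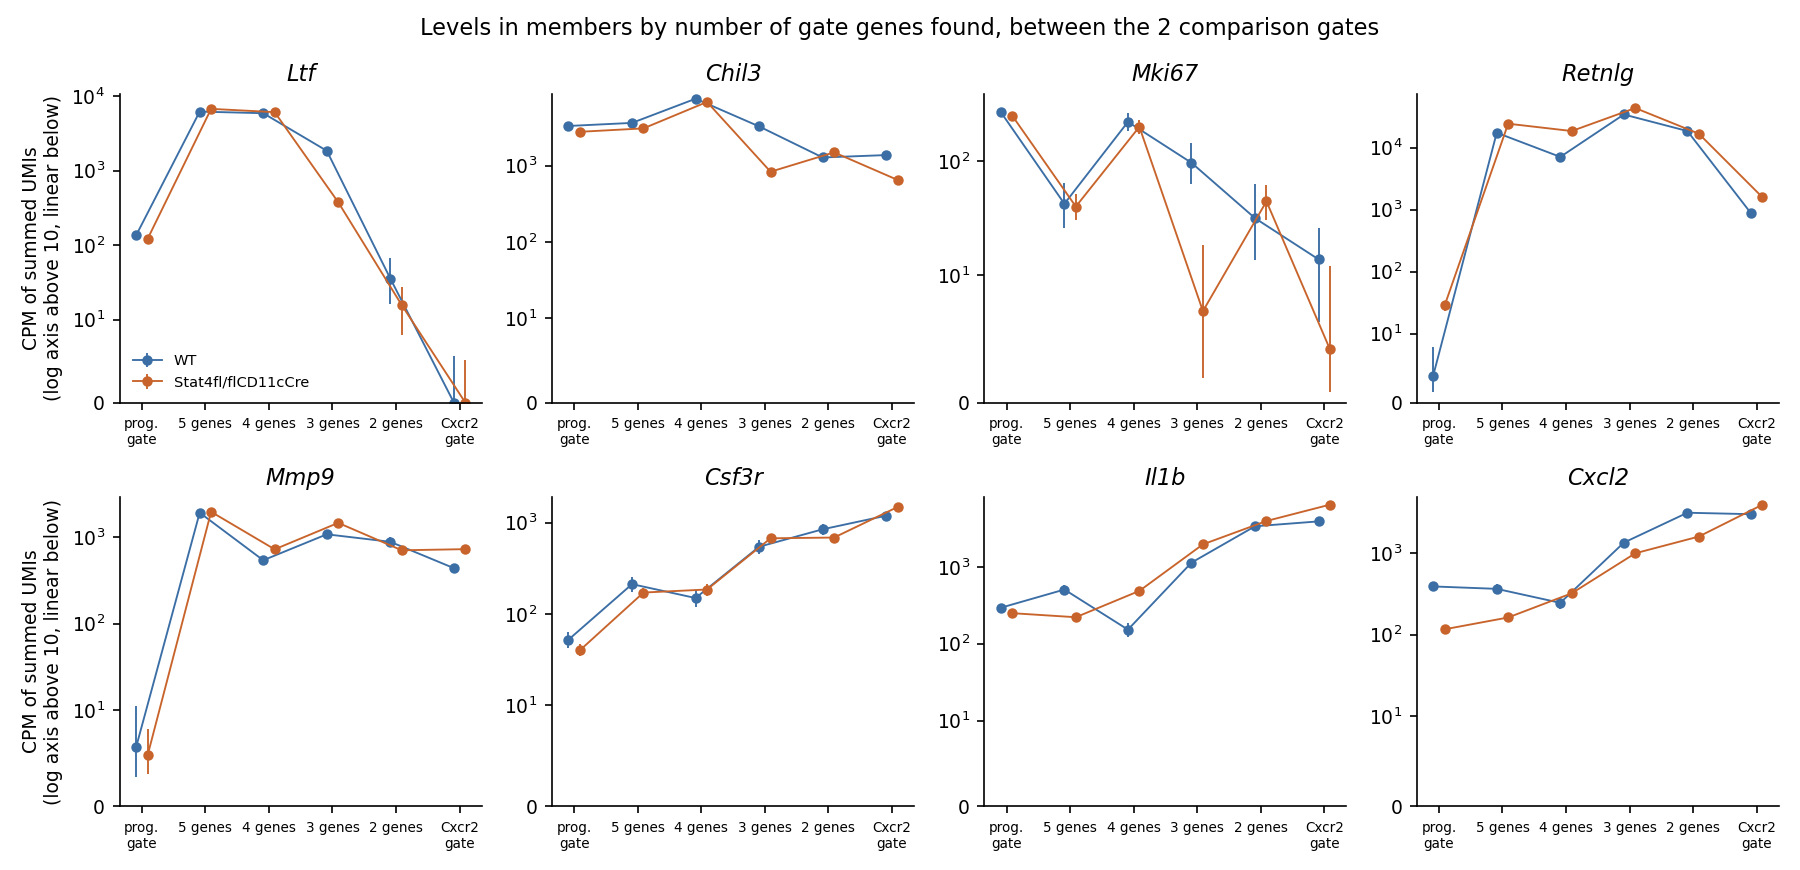
CPM of summed UMIs for 8 genes (vertical axes, logarithmic above 10 and linear below) in the progenitor gate, in members by the number of gate genes found and in Cxcr2 neutrophils without gate genes, for WT (blue) and Stat4fl/flCD11cCre (orange); bars are 95% counting intervals. Chil3 peaks in members with 4 gate genes and Retnlg in those with 3, while Csf3r, Il1b and Cxcl2 are higher in members with 3 or 2 gate genes than in those with 4.

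Cebpe, Chil3 and Fcnb were highest in members with 4 gate genes. Cebpe, a transcription factor required for specific granule genes, was at 401 CPM (WT) and 457 CPM (Stat4fl/flCD11cCre) there, against 169 and 176 CPM with 5 gate genes and 11.9 and 1.31 CPM with 2. Chil3, a chitinase-like secreted protein, was at 7550 and 6848 CPM with 4, against 3637 and 3082 CPM with 5. Fcnb, which encodes ficolin-B, was at 371 and 299 CPM with 4 and at 14.1 and 39.3 CPM with 5. All 3 genes gave the same order in both libraries. The sum of the azurophil granule list did not follow this order: its 11 genes summed to 12259 and 15863 CPM with 4 gate genes, 12588 and 14893 CPM with 5 and 12015 and 19614 CPM with 2. Most of this sum was the lysozyme gene Lyz2, at 9813 of 11980 CPM over all WT members and 13242 of 15688 CPM over all Stat4fl/flCD11cCre members. Mpo and Elane were at 0 by rule, so the sum says little of the other azurophil genes.

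Other genes peaked elsewhere. Mmp9, the gelatinase, was highest with 5 gate genes, at 1917 and 1963 CPM, against 540 and 723 CPM with 4. Retnlg was highest with 3 gate genes, at 34401 and 43703 CPM, and lowest with 4 in WT (7113 CPM) but with 2 in Stat4fl/flCD11cCre (16845 CPM). The inflammatory genes lay at the other end. Il1b, which encodes interleukin-1 beta, went from 152 and 486 CPM with 4 gate genes to 3365 and 3939 CPM with 2, close to the 3892 CPM of WT Cxcr2 neutrophils without gate genes and below the 6430 CPM of the Stat4fl/flCD11cCre ones. Csf3r went from 149 and 185 CPM with 4 to 847 and 688 CPM with 2. Ccl6, a CC chemokine gene, was high with both 3 (1225 and 1594 CPM) and 2 gate genes (1176 and 1595 CPM) and lower on either side, at 416 and 447 CPM in Cxcr2 neutrophils without gate genes.

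Cycling cells sat mainly among the members with 4 gate genes. After thinning to 2500 UMIs, a cell counted as cycling with UMIs in 3 or more genes of the proliferation list. This held for 22 of 50 WT members with 4 gate genes (44.0%) and 24 of 77 Stat4fl/flCD11cCre ones (31.2%), but for 3 of 64 and 6 of 137 with 5. The progenitor gate was higher still, at 87.4% of 95 and 81.0% of 174 cells. Over all members the share was 33 of 201 in WT (16.4%, interval 11.6% to 22.3%) and 38 of 418 in Stat4fl/flCD11cCre (9.09%, 6.51% to 12.3%), and their ratio was 0.554 (0.338 to 0.911). Without thinning it was 25.8% and 17.4%. Thinning left out 16 and 14 shallower members. Within the members with 4 gate genes the ratio was 0.708, with an interval from 0.380 to 1.33 that includes 1. Cxcr2 neutrophils without gate genes differed in the same direction, with 30 of 212 cycling in WT and 13 of 243 in Stat4fl/flCD11cCre without thinning (ratio 0.378). Thinning left out 136 and 141 of these cells and gave 12 of 76 and 2 of 102.

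Set against Cxcr2 neutrophils without gate genes, which have UMIs of Cxcr2 and Csf3r and none of the gate or exclusion genes, members were rich in granule transcripts and poor in interferon-response transcripts. Of these cells there were 212 (WT) and 243 (Stat4fl/flCD11cCre), at shallower median depths of 2025.5 and 2341 UMIs, and 71.7% and 77.8% of them had S100a8 and S100a9 at 1% or more. Both gates were cut on measured values, so the contrast is a description. Of 5282 genes with 100 or more UMIs, 263 (4.98%) were at least 2-fold higher in members in both libraries and 1268 (24.0%) at least 2-fold lower. This split depends on the scale, because S100a8 and S100a9 fill so much of the members' totals: the median gene stood at log2 -0.71 (WT) and -0.70 (Stat4fl/flCD11cCre). With totals taken without genes above 1% of members' UMIs, 490 were higher and 362 lower, and with the median gene set to 1, 531 and 323. List counts are therefore given on the CPM scale and then on these other scales, in that order. A gene can pass the minimum through the side where it is high, so these counts describe the genes tested and not whole lists.

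Genes of granules and calgranulins were the higher ones. Of 13 specific granule genes outside the gates, 7, 10 and 10 were 2-fold higher in members in both libraries and 0 lower on any of the 3 scales. This count was partly set by the minimum, which some of these genes could pass only through the members. Fcnb had 276 and 363 UMIs in members against 0 and 0, and Orm1 183 and 413 against 1 and 0. Lcn2 was at 13585 CPM in WT members against 621 CPM, and at 13685 against 805 CPM in Stat4fl/flCD11cCre. Cd177, a neutrophil surface protein kept in granules, was at 691 against 30.7 CPM and at 627 against 29.3 CPM. Serpinb1a, an inhibitor of neutrophil serine proteases, was at 528 against 6.14 CPM and at 433 against 15.3 CPM. Of 14 calgranulin and alarmin genes, 9, 10 and 10 were higher, and Retnlg was at 16558 against 880 CPM and at 24238 against 1591 CPM. Mki67 was at 115 against 13.8 CPM and at 77.2 against 4.18 CPM. Proliferation genes are not counted here for the same reason: a gene near 0 in the other cells can pass the minimum of 100 UMIs only through the members.

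Interferon-response, chemokine and immediate early genes were the lower ones. Of 21 interferon-gamma response genes, 20, 16 and 14 were 2-fold lower in members in both libraries and 0 higher. Cxcl9, an interferon-induced T cell chemokine, was at 70.1 CPM in WT members against 1058 CPM, and at 38.8 against 410 CPM in Stat4fl/flCD11cCre. Of 24 type I interferon genes, 20, 16 and 16 were lower, and Ifit1, an antiviral RNA-binding protein, was at 20.7 against 220 CPM and at 22.5 against 268 CPM. Of 16 chemokine and cytokine genes, 13, 10 and 10 were lower and 0, 2 and 2 higher. Ccl3, a CC chemokine, was at 61.3 against 711 CPM and at 39.4 against 539 CPM, and Il1b was at 929 against 3892 CPM and at 1310 against 6430 CPM. Of 20 immediate early genes, 13, 5 and 5 were lower, so most of that count came with the scale.

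Against the progenitor gate (95 WT and 174 Stat4fl/flCD11cCre cells, median depths 16739 and 22411.5 UMIs), members held more transcripts of late neutrophil genes and fewer of cell cycle genes. Of 7606 genes tested, 616 (8.10%) were 2-fold higher in members in both libraries and 3075 (40.4%) lower, with the median gene at log2 -0.84 and -0.87. Without genes above 1% of members' UMIs the split was 1243 higher and 1667 lower, and with the median gene set to 1 it was 1502 and 1380. Retnlg was at 16558 CPM in WT members against 3.91 CPM in the progenitor gate, and at 24238 against 28.5 CPM in Stat4fl/flCD11cCre. Mmp9 was at 1109 against 6.15 CPM and at 1311 against 5.27 CPM. Fpr1, the formyl peptide receptor of bacterial chemotaxis, was at 150 against 1.12 CPM and at 149 against 0.959 CPM. Secretory vesicle and surface genes were 2-fold higher for 10, 12 and 13 of 15 on the 3 scales, and late maturation genes for 11, 15 and 16 of 18, with 0 lower in either list. Here too the minimum partly set the counts: Fpr1 had 240 and 558 UMIs in members against 2 and 4. Proliferation genes were lower for 22, 11 and 9 of 24 and heat shock chaperone genes for 9, 7 and 4 of 12. The progenitor gate also held Prss34 and Mcpt8, basophil and mast cell proteases, at 426 and 369 CPM in WT and 125 and 83.4 CPM in Stat4fl/flCD11cCre, so it was not made of neutrophil precursors alone.

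Between genotypes, members had much the same profile, with small groups of genes on either side. Of 4288 genes with 100 or more UMIs over both libraries, 137 (3.19%) were 1.5-fold or more higher in Stat4fl/flCD11cCre members and 141 (3.29%) 1.5-fold or more lower, around a median log2 ratio of 0.01. That is 278 genes in either direction, or 6.48%. The intervals of 443 of the 4288 genes lay above 0 and those of 397 below, against which the interval counts of lists can be read. Without the low-S100 members, 106 of the same genes were higher and 250 lower, around a median of -0.05. Leaving genes above 1% of members' UMIs out of the totals, or setting the median gene to 1, moved this comparison by less than 0.1 on the log2 scale. Values are also given for members with 4 or 5 and with 2 or 3 gate genes, a split added after seeing the data. With 1 library per genotype these are differences between 2 libraries, and no test across animals exists.

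**Figure D2:**
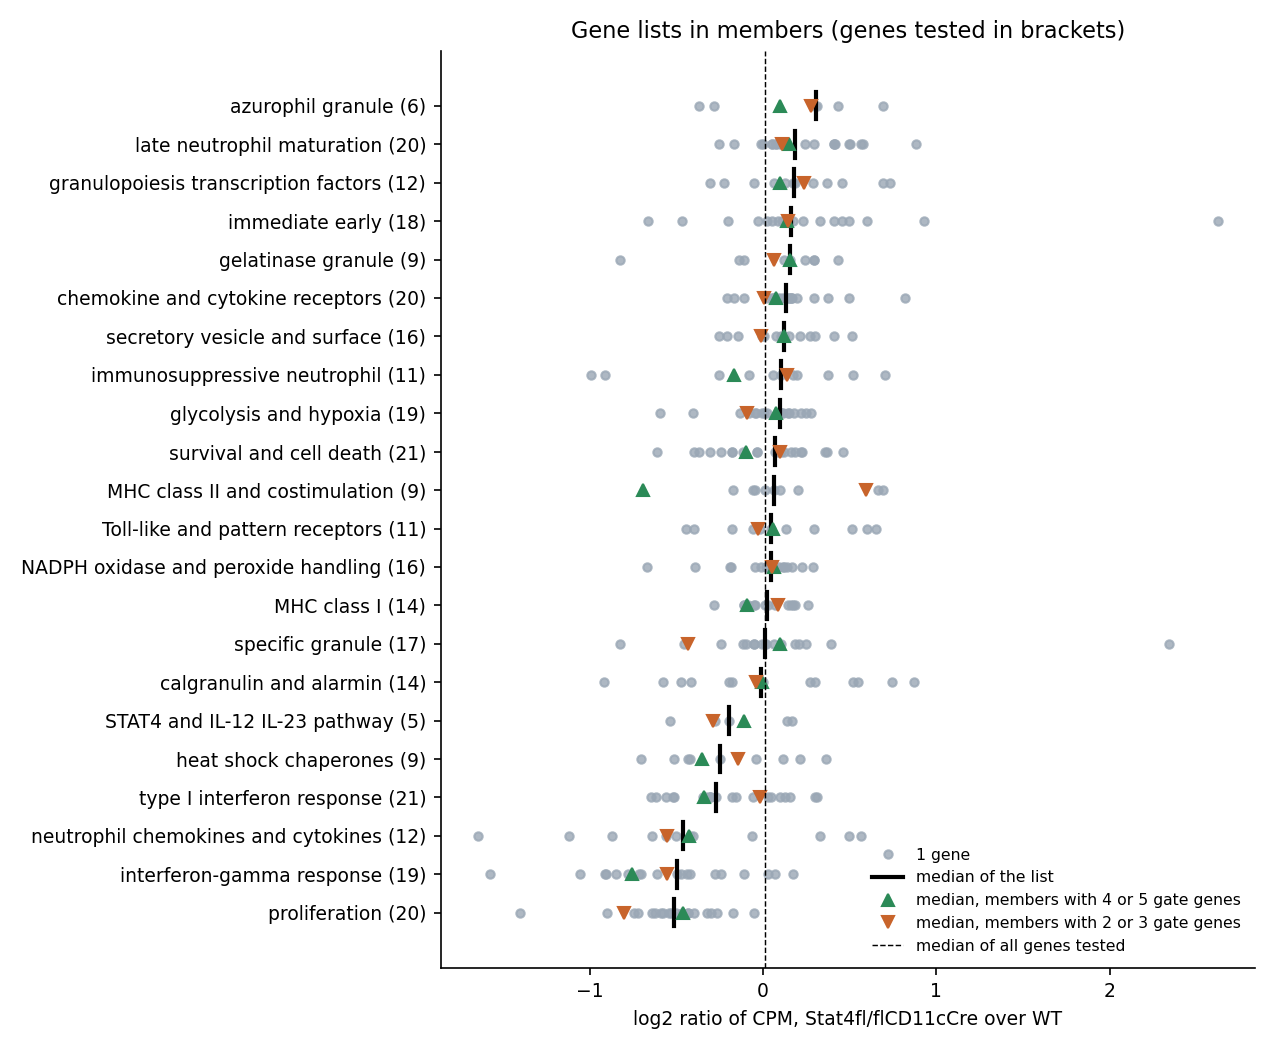
Log2 ratios of CPM between Stat4fl/flCD11cCre and WT members (horizontal axis) for each tested gene (grey points) of 22 lists (vertical axis, number of genes tested in brackets), with the list's median over all members (black bar) and within members with 4 or 5 (green) or 2 or 3 gate genes (orange). Proliferation, interferon-gamma response and chemokine genes have the lowest medians, from -0.52 to -0.46, and the MHC class II medians point opposite ways in the 2 subsets.

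Specific granule genes lay on both sides. Of 17 tested, 1 was 1.5-fold higher (Olfm4) and 1 lower (Fcnb), against 3.19% and 3.29% of all genes tested. The median log2 ratio was 0.01, equal to that of all genes. Over 12 other settings this median ranged from -0.27 to 0.65 and was below 0 in 4. The rule used Ltf, Ngp, Camp, Mmp8 and Ly6g to choose members, so their ratios are only a description. All of them but Ly6g also enter the count and median of this list. Ltf, Ngp and Camp gave -0.05, -0.12 and -0.10, and Lcn2 0.01. Ly6g, at 734 CPM in WT and 903 CPM in Stat4fl/flCD11cCre, gave 0.30 (interval 0.20 to 0.40), and Mmp8, at 1631 and 1881 CPM, gave 0.21 (0.14 to 0.27). Chil3 stood lower in Stat4fl/flCD11cCre, at 4651 against 3392 CPM (log2 ratio -0.46, -0.50 to -0.41), and Fcnb likewise, at 173 against 97.2 CPM and -0.83 (-1.06 to -0.60). Both genes were lower in members with 4 or 5 gate genes (-0.33 and -0.54) and in those with 2 or 3 (-0.91 and -2.84).

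Retnlg stood higher in Stat4fl/flCD11cCre members. Retnlg was at 16558 CPM in WT and 24238 CPM in Stat4fl/flCD11cCre members, with medians of 89 and 172.5 UMIs per member. The log2 ratio was 0.55 (0.53 to 0.57) over all members, 0.90 with 4 or 5 gate genes and 0.08 with 2 or 3. Retnlg also stood higher in other cells of the Stat4fl/flCD11cCre library. It was at 65.0 (WT) and 283 CPM in T cells and at 270 and 430 CPM in microglia, both chosen without using gate genes. In Cxcr2 neutrophils without gate genes it was at 880 and 1591 CPM. The part of a difference between whole libraries in the members' ratio was not tested. Of 20 late maturation genes, 1 was 1.5-fold higher and 0 lower, a share near that of all genes, with a median of 0.18 and the intervals of 11 above 0 and of 2 below. Steap4, a metalloreductase, was the 1 past the fold, at 21.9 and 40.5 CPM, and its log2 ratio was 0.89 (0.35 to 1.46). Ccl6 was at 481 and 710 CPM (0.56, 0.45 to 0.68) and Slpi, which encodes a secreted protease inhibitor, at 1162 and 1644 CPM (0.50, 0.43 to 0.58). Lyz2, the lysozyme gene, gave 0.43 (0.41 to 0.46), from 9813 to 13242 CPM. Cxcr2, at 462 and 503 CPM, gave 0.12, and Csf3r 0.05, with intervals that include 0. A Cxcr2 UMI was found in 82.9% and 87.5% of members, and after thinning in 59.7% and 66.7%, against 0.590% and 0.990% of unthinned T cells.

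Interferon-gamma response genes stood lower in Stat4fl/flCD11cCre members. Of 19 tested, 9 were 1.5-fold lower and 0 higher, against 3.29% and 3.19% of all genes tested. The median log2 ratio was -0.50 against 0.01 for all genes, and the intervals of 12 lay below 0. Gbp2, an interferon-induced guanylate-binding protein, was at 189 CPM in WT and 101 CPM in Stat4fl/flCD11cCre (-0.90, -1.13 to -0.68). Gbp5, of the same family, was at 66.3 and 31.9 CPM (-1.06, -1.45 to -0.67). Cd274, which encodes the inhibitory ligand PD-L1, was at 122 and 64.8 CPM (-0.91, -1.19 to -0.63), and the immunity-related GTPase Iigp1 at 40.7 and 13.7 CPM (-1.57, -2.13 to -1.02). Iigp1 had a UMI in 14 of 201 thinned WT members and 3 of 418 thinned Stat4fl/flCD11cCre members. Gbp2 had one in 21.4% and 15.3% of thinned members and Cd274 in 15.4% and 10.0%. The ratios of these shares, 0.716 (0.479 to 1.08) for Gbp2 and 0.651 (0.400 to 1.07) for Cd274, have intervals that include 1. The list's median was -0.66 without the low-S100 members, -0.76 with 4 or 5 gate genes and -0.56 with 2 or 3. With the minimum of 100 UMIs applied within each of these subsets, which changes the genes tested, it was -0.32 and -0.64. The summed list was lower in Stat4fl/flCD11cCre with 2, 4 and 5 gate genes but not with 3, at 2276 (WT) and 2443 CPM. It was also lower outside the members. In Cxcr2 neutrophils without gate genes it was at 10943 and 8074 CPM, and in the progenitor gate at 2488 and 1765 CPM. The 3 genes of the list with ratios above 0, Psmb8, Tap1 and Psmb9, at 0.03, 0.07 and 0.17, were named after their values were seen, and Psmb8 was at -0.31 without the low-S100 members. Type I interferon genes differed less, with 2 of 21 past 1.5-fold lower, 0 higher and a median of -0.27.

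Chemokine and cytokine genes were split. Of 12 tested, 4 were 1.5-fold lower (Csf1, Ccl2, Tnf and Ccl3) and 0 higher, against 3.29% and 3.19% of all genes tested. The median was -0.46. Csf1, the macrophage growth factor gene, was at 39.4 and 12.6 CPM (-1.65, -2.22 to -1.08), and Tnf, the tumour necrosis factor gene, at 98.2 and 53.6 CPM (-0.87, -1.18 to -0.56). Cxcl2, a ligand of Cxcr2, was at 922 and 624 CPM (-0.56, -0.66 to -0.47), although equal shares of thinned members had a UMI, 33.3% and 33.5%. Il1b went the other way, at 929 and 1310 CPM (0.50, 0.41 to 0.58), with a UMI in 37.8% and 48.8% of thinned members. Its ratio was -0.06 with gate genes at 0.5% or more of UMIs, -0.02 with the gate read after thinning, 0.06 in members with 4 or 5 gate genes and 0.47 in those with 2 or 3. Among other signalling genes, Jak2, a kinase of cytokine receptors, was at 59.4 and 41.0 CPM (-0.54, -0.92 to -0.15), and none of the 5 tested genes of the STAT4 and interleukin-12 list passed 1.5-fold.

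Proliferation genes stood lower in Stat4fl/flCD11cCre members too. Of 20 tested, 7 were 1.5-fold lower and 0 higher, against 3.29% and 3.19% of all genes tested. The median was -0.52, and the intervals of 15 lay below 0. Hist1h2ap, a replication-dependent histone gene with near-identical copies, was at 543 and 205 CPM (-1.40, -1.54 to -1.26). Pcna, the sliding clamp of DNA replication, was at 49.4 and 26.5 CPM (-0.90, -1.34 to -0.45), and Mki67, a marker of cycling cells, at 115 and 77.2 CPM (-0.58, -0.85 to -0.30). The medians were -0.46 with 4 or 5 gate genes and -0.81 with 2 or 3. The summed list was not lower at each number of gate genes. It was at 5943 (WT) and 4676 CPM (Stat4fl/flCD11cCre) with 4 and at 2527 and 579 CPM with 3. With 5 it was at 1079 and 1130 CPM, and with 2 at 839 and 1261 CPM. Without the exclusion genes, the median of the list was 0.48, above 0.

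Some of the genes with the highest ratios were carried by few cells or by the low-S100 members. Olfm4, an olfactomedin found in a subset of neutrophils, was at 18.8 CPM in WT and 95.4 CPM in Stat4fl/flCD11cCre (2.34, 1.81 to 2.93). In WT it came from 30 UMIs in 4 members, 1 of which held 80.0% of them, and in Stat4fl/flCD11cCre from 356 UMIs in 15 members. The share of thinned members with a UMI was 1.49% of 201 and 3.11% of 418, a ratio of 2.08 whose interval, 0.573 to 11.4, includes 1. F13a1, coagulation factor XIII and a monocyte marker, was at 30.0 and 94.6 CPM (1.65, 1.22 to 2.12), but 64.6% and 81.3% of its UMIs lay in low-S100 members, and without them the log2 ratio was 0.81. S100a10, at 83.2 and 152 CPM, went from 0.87 to -0.20 without them, and Plcb1, which encodes a phospholipase C, from 1.18 to 0.30. The other genes of this rank were Cdkn1a, Ms4a6c, Pid1, Ms4a4c, Thbs1, Fabp5, Clec4a3 and Ell2, with log2 ratios from 0.85 to 1.25 over all members and from 0.63 to 1.04 without the low-S100 ones. With the gate read after each cell was thinned to 1000 UMIs, the ratios of F13a1, Cdkn1a, Ms4a6c, Pid1, Ms4a4c and S100a10 fell below 0, the lowest being that of Ms4a6c at -0.54. Thbs1, the thrombospondin gene, was found in 35 WT and 104 Stat4fl/flCD11cCre members, at 77.6 and 152 CPM.

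**Figure D3:**
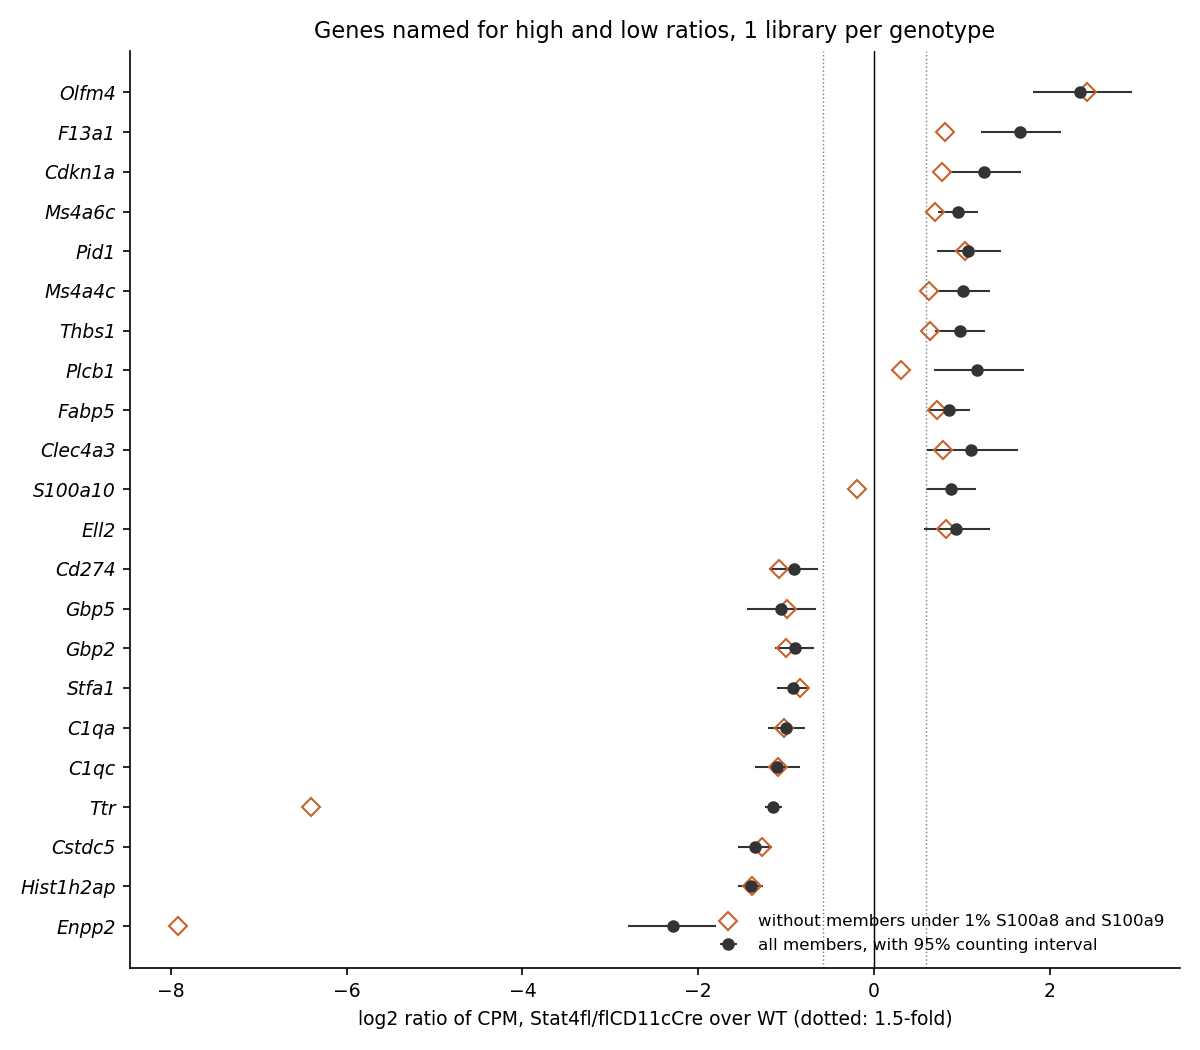
Log2 ratios of CPM, Stat4fl/flCD11cCre over WT (horizontal axis), for 22 genes named for high or low ratios (vertical axis), over all members with 95% counting intervals (black) and without the low-S100 members (orange diamonds). S100a10 crosses 0 and F13a1 and Plcb1 move toward it, while Gbp2, Gbp5, Cd274 and Hist1h2ap keep their place; Ttr and Enpp2 rest mostly on 1 cell in each library, the Stat4fl/flCD11cCre one a low-S100 member, and the diamond of Enpp2 rests on 1 Stat4fl/flCD11cCre UMI.

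The genes with the lowest ratios mixed interferon and histone genes with genes of other cells. Ttr, the transthyretin gene of choroid plexus, was at 1079 and 488 CPM, but 1 member in each library held 98.0% and 97.3% of its UMIs, and 1 member in each held 99.1% and 98.1% of those of Enpp2. Without the 10% of cells with the highest doublet scores, the ratios of Ttr and Enpp2 were above 0, at 4.58 and 4.50. The complement genes C1qa and C1qc, which macrophages and microglia make, were at 215.9 and 108 CPM and at 155 and 72.1 CPM (-1.10 for C1qc). They moved with the microglia marker sum of members, 286 CPM in WT and 151 CPM in Stat4fl/flCD11cCre, while among all other kept barcodes that sum was 4982 and 8227 CPM. The macrophage marker sum of members was 1865 and 1888 CPM, and Apoe, an apolipoprotein gene of that list, was at 862 and 1136 CPM. The part of RNA from other cells in these values was not tested. Stfa1 and Cstdc5, stefin genes with near-identical copies between which reads can be split, gave -0.92 (275 and 145 CPM) and -1.35 (295 and 116 CPM). In WT, Stfa1 lay in 12 members, 1 of which held 37.5% of its UMIs.

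Some lists held genes on both sides. Of 18 immediate early genes, 3 were 1.5-fold higher and 1 lower, against 3.19% and 3.29% of all genes tested, with a median of 0.16. Klf4, a zinc finger transcription factor of monocytes, was at 6.26 and 38.6 CPM (2.62, 1.70 to 3.71) and at 1.59 without the low-S100 members, which held 58.3% of its Stat4fl/flCD11cCre UMIs. Atf3, a stress-induced transcription factor, gave 0.93 (41.9 and 79.8 CPM), and Jun -0.66 (302 and 190.5 CPM). MHC class II genes pointed opposite ways by the number of gate genes. H2-Aa was at 349 and 351 CPM over all members, with a log2 ratio of -0.99 with 4 or 5 gate genes and of 0.59 with 2 or 3, and Cd74, the invariant chain, gave -0.90 and 0.65. In WT, 1 member held 23.5% of all H2-Aa UMIs.

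The libraries also carried 5 antibody tags, which measure surface protein as UMIs per cell. CD11b, the integrin that Itgam encodes, was bound by members in both libraries, with medians of 471 (quartiles 300 and 714) in WT and 450.5 (269.5 and 756.5) in Stat4fl/flCD11cCre, against 29 and 22 on T cells. Cxcr2 neutrophils without gate genes had more, 1015 and 1167, and the progenitor gate less, 169 and 146. This order, progenitor gate below members below Cxcr2 neutrophils, held in both libraries. CD172a, the SIRP alpha protein of myeloid cells, was at 128 and 202 on members and at 39 and 92.5 on T cells. The tags for MERTK (13 and 37), XCR1 (12 and 29) and CD317 (12 and 21), proteins of macrophages, of cross-presenting dendritic cells and of plasmacytoid dendritic cells, were near the T cell medians of the same library (12 and 32.5, 11 and 25, 13 and 20). Their difference between libraries in members was thus present in T cells as well.

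**Figure D4:**
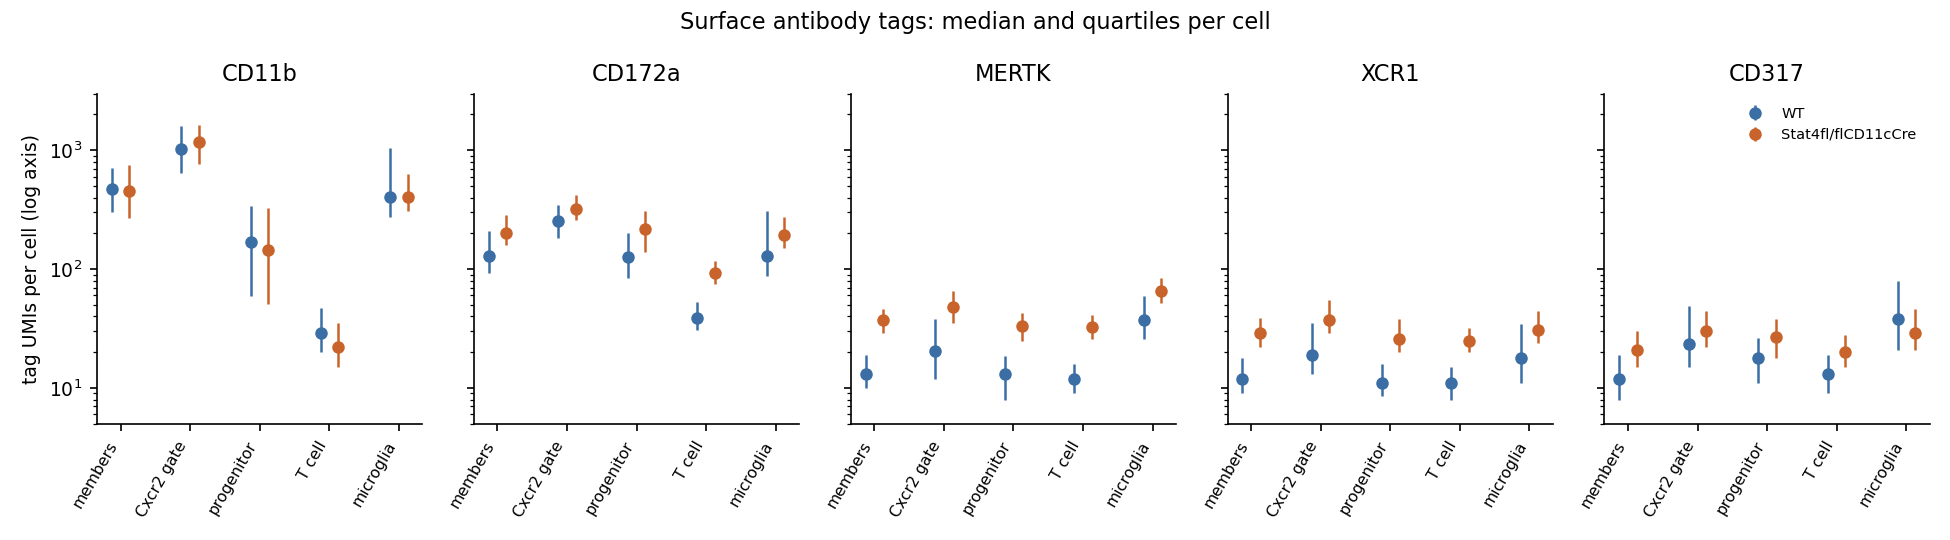
Tag UMIs per cell (vertical axis, logarithmic) for 5 surface antibodies (panels) in members, the 2 comparison gates, T cells and microglia (horizontal axis); points are medians and bars quartiles, WT in blue and Stat4fl/flCD11cCre in orange. Members lie above T cells for CD11b and CD172a in both libraries and beside them for MERTK, XCR1 and CD317.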

How the data were processed

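The deposited matrices hold whole-number UMI counts per gene and cell barcode, as the authors deposited them; per the submitters' processing notes they were made with Cell Ranger 7.0.0 on mm10, with bcl2fastq, STAR, Seurat and R 4.3.0 also named. Barcodes numbered 13820 (WT) and 12534 (Stat4fl/flCD11cCre), with 122975017 and 120221740 gene UMIs. The 5 antibody tag features were kept out of gene totals.

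UMIs were summed over the members of each library and divided by their total (CPM). Genes with 100 or more UMIs over both sides were compared, with exact conditional binomial intervals for ratios, Poisson for CPM and Clopper-Pearson for shares (95%). Cells are not replicates, so no p-value was computed. PCR duplicates were collapsed by UMI, and intervals cover counting error only. To compare shares, cells were thinned to 2500 UMIs. The functions were tested on simulated counts. Python 3.11.15, NumPy 2.4.6, SciPy 1.17.1, pandas 2.3.3 and scanpy 1.11.5 (doublet scores, used as an alternative only) were used.

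Named genes were the gate genes, a fixed set of neutrophil genes, the 25 highest by CPM, the 12 highest and 12 lowest ratios by the interval bound nearest 1 among genes with 50 or more CPM in one library, and up to 4 per list. Mitochondrial, ribosomal, immunoglobulin, T cell receptor, sex-linked and predicted genes were left out of rankings, and other names were chosen after their values were seen. Members, 22 gene lists and 14 marker lists were chosen with earlier results of these data known. Alternatives changed the cell filter, doublets, the gate, the scale, the weight of cells, the minimum count and the fold. A few genes that the rule names are not reported here. RefSeq windows matched all 5 gate genes.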

Additional observations from a re-analysis of the deposited data

How the results depend on the processing

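No paired analysis was possible because each genotype is 1 library, and no library could be left out for the same reason. Members were more frequent in Stat4fl/flCD11cCre in each of the 9 settings, at ratios of 1.56 to 2.19, with 1.56 where no exclusion genes were read. The cycling ratio stayed below 1 in 11 settings (0.454 to 0.724). The interferon-gamma, type I interferon, chemokine and heat shock medians stayed below 0 in 12 settings each, and the late maturation and gelatinase granule medians above 0.

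Counts of genes between genotypes (main: 137 higher, 141 lower in Stat4fl/flCD11cCre) moved with the gate and the minimum count. Higher genes numbered 80 with 3 or more gate genes, 55 with gate genes at 0.5% or more of UMIs, 88 with the gate read after thinning to 1000 UMIs, 735 and 33 with minimums of 20 and 300 UMIs, and 18 at 2-fold. Lower genes numbered 520 with the thinned gate, 305 with the mean of per-cell CPM, 847 and 29 with minimums of 20 and 300 UMIs, and 18 at 2-fold. Settings chosen after seeing the data gave 81 higher genes without low-S100 members, 71 with 4 or 5 gate genes, and 240 higher and 683 lower without exclusion genes. The number of genes tested also changes with the minimum count, and the cause of these changes was not tested.

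Against Cxcr2 neutrophils (main: 263 higher, 1268 lower), the counts were 490 and 362 with totals without genes at 1%, 531 and 323 with the median ratio set to 1, 2286 lower with a minimum of 20 UMIs, 142 and 606 with 300, 171 and 406 at 3-fold, and 1196 and 552 without exclusion genes. Against the progenitor gate (main: 616 and 3075), they were 1243 and 1667, 1502 and 1380, 406 and 1670 with 300 UMIs, 360 and 1834 at 3-fold, and 1825 and 1409 without exclusion genes.

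Of genes named between genotypes, 25 had a ratio of opposite sign in at least 1 of 10 settings. For 16 of them the main ratio was under 1.5-fold: H2-Aa (to -1.31) and Cd74 (to -1.41) moved most, and Il1b reached -0.06. The other 9 had passed 1.5-fold. Without the 10% highest doublet scores, Enpp2 gave 4.50 and Ttr 4.58. S100a10 gave -0.49 with 3 or more gate genes, -0.70 with gate genes at 0.5% and -0.20 without low-S100 members. With gate genes at 0.5%, Pid1 gave -0.11 and Plcb1 -0.16. With the thinned gate, F13a1 gave -0.016, Cdkn1a -0.30, Ms4a6c -0.54, Pid1 -0.49, Ms4a4c -0.47, S100a10 -0.44, Enpp2 3.30 and Ttr 2.48.

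For tags, ratios of medians (Stat4fl/flCD11cCre over WT) were 2.47 for MERTK with the thinned gate and, as shares of tag UMIs, 1.38 for CD172a and 2.45 for MERTK. Without exclusion genes they were 0.597 for CD11b, 1.56 for MERTK, 1.46 for XCR1 and, crossing 1, 0.904 for CD172a and 0.725 for CD317.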
